A study of Mus musculus with 9 samples.

Results

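The SPARC family of matricellular genes and its closest relatives were followed here: Sparc, Sparcl1, Smoc1, Smoc2, Spock1, Spock2, Spock3 and Fstl1. The family was chosen by gene name, and each name was matched to 1 Ensembl gene, giving 8 of the 54232 genes in the count tables. It was selected on earlier results of these same counts, in which differences of Spock1 and Smoc2 between genotypes were already known. The differences between genotypes below are therefore given as descriptions with their errors, and no p-value is printed for a family member. Whether a member passed the call rule used for all genes is stated as part of that description.

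RNA came from the cochlear duct, the epithelial tube of the inner ear that forms the organ of hearing, at embryonic day 14.5 (E14.5). The genotypes compared at this age were wild type (WT), heterozygotes with 1 copy of the Prdm16 cGT allele (Het), and embryos carrying only that allele (null). Prdm16 cGT is a gene trap that acts as a null allele of Prdm16, a transcriptional regulator expressed in Kölliker's organ, the epithelium on the inner side of the sensory region. Carriers were intercrossed, so the allele was present in every tissue of an embryo and not only in the duct. Each of the 9 libraries, 3 per genotype, was made from the dissected ducts of a different embryo, and the embryos were littermates from a strain kept on an FVB/NJ background.

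Proteins of this family are secreted, and all carry a follistatin-like domain and an extracellular domain related to the calcium-binding domain of SPARC. They are matricellular proteins: they sit in the matrix and change how cells meet it, rather than forming its fibers. SPARC and SPARCL1 (hevin) bind collagens and help fibrils assemble, the SMOC proteins bind heparan sulfate and alter the reach of BMP signals, the testicans (SPOCK proteins) are proteoglycans that carry chondroitin and heparan sulfate chains and can inhibit proteases, and FSTL1 binds BMPs and is made mainly by mesenchyme in many developing organs.

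The sequences that bear most directly on these measurements are the Spock1 primers of the study and the start regions of Spock1 and Spock2, the pair of abundant testicans, of which Spock1 was called between genotypes and Spock2 was not. Spock1 is ENSMUSG00000056222 at chr13:57421195-57908332 on the minus strand of mm10. By qPCR the paper reports lower Spock1 in null cochleae. Both of its Spock1 primers matched 2 of the 6 GENCODE transcripts of the gene and no transcript of any other gene. In the transcript with 11 exons they lie in coding sequence of the last, exon 11, at chr13:57423141-57423161 and chr13:57423101-57423120, so a 61-base product is read from a single exon at the 3′ end of the message.
Spock1 forward primer: cggctgagtgtgcatcaattt
Spock1 reverse primer: ggatgggaagaacccacgaa

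RefSeq (GRCm38.p6) start regions were found for 5 of the 8 genes, Sparc, Spock1, Spock2, Spock3 and Fstl1. The 250 bases before the start of Spock1 (chr13:57908333-57908582, minus strand) and of Spock2 (chr10:60106007-60106256, plus strand) are shown 5′ to 3′, with capitals marking the GC box GGGCGG or its reverse complement.
Spock1 start region: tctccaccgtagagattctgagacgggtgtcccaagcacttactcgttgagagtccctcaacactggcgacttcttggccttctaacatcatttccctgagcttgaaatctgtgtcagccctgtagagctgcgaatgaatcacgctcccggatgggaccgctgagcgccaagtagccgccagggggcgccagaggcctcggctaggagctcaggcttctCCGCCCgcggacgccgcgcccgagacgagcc
Spock2 start region: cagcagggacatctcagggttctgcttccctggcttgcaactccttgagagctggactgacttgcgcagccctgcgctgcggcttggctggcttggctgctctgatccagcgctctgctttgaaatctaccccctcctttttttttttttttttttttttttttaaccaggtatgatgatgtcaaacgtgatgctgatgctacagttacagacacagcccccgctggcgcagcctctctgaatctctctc

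The testican start regions differ in composition. Spock1 holds 20 CpG dinucleotides in its 250 bases and a GC content of 61.2%, more CpG than 82.1% of the 32851 windows of this kind. Spock2 holds 7 CpG at a GC content of 51.2%, near the median of 6 over all windows. The motifs searched, on both strands, were the GC box above, the E-box (letters CANNTG), the TATA box (letters TATAAA), the CCAAT box, and the string GACAAGATA, of the kind bound by the PRDM16 relative EVI1. Spock1 had 1 match, a GC box from 31 to 26 bases before its start, and Spock2 had none. Matches to these letters occur in 32.7% of all windows for the GC box, 66.2% for the E-box, 12.4% for the TATA box, 33.8% for the CCAAT box and 0.107% for the EVI1-like string, and no member's window held the last of these.

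Total counts ran from 24095322 to 30819118 per library. Prdm16, the targeted gene, had a mean level of 202.1 CPM (counts scaled to the library total) in WT, 138.4 in Het and 23.4 in null, with no overlap between genotypes, which follows the labels. WT 1, WT 2 and Null 3 stood apart in markers of other tissue. The summed level of 13 periotic mesenchyme markers was 648.1 CPM in WT 1, 1162 in WT 2 and 1823 in Null 3, against 46.3 to 127.6 in the other 6. Endothelial markers (8 genes) were also higher in these 3 libraries, at 60.3 to 96.9 CPM against 8.18 to 12 in the rest, and 7 cartilage markers summed to 15890 CPM in Null 3 against 6876 to 8095 elsewhere. Melanocyte markers (5 genes) were higher in all 3 WT libraries, at 55.2 to 132.2 CPM, than in Het, at 20.6 to 40.4, and null, at 12.2 to 43.0, the direction in which Smoc2 and Spock1 differed, and their part in those differences was not tested. Blood markers (7 genes) summed to 67.9 to 192.2 CPM in WT, 25.4 to 46.7 in Het and 54.2 to 98.8 in null, so that WT lay above Het, as it did for Smoc2, Spock3 and Fstl1, and their part there was not tested either. None of the markers in these lists was at 0 in every library. Mesenchyme and endothelium are cell types outside the duct epithelium, and values with and without these 3 libraries are given where a member moves with them.

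The family was led by Sparc. Levels can be compared between genes only per length, and CPM per kilobase of exon in WT was 511.4 ± 17.8 (SD, n = 3) for Sparc, 173.2 ± 26.4 for Fstl1, 85.5 ± 10.6 for Sparcl1 and 58.7 ± 6.16 for Spock2. Lower on the same scale came Spock1 at 37.1 ± 3.66, Smoc1 at 31.4 ± 2.59 and Smoc2 at 29.2 ± 1.61, whose neighbors in this order overlapped between libraries. Spock3 stood far below at 0.574 ± 0.065. The WT level of Sparc per length exceeded that of 99.9% of tested genes, and that of Spock3 exceeded 18.1%. In null ducts the order changed in its lower part: Spock1 was at 16.8 ± 0.866 CPM per kilobase and Smoc2 at 15.8 ± 2.21, both below every null library of Smoc1, which ranged from 29.3 to 40.3.

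**Figure D1:**
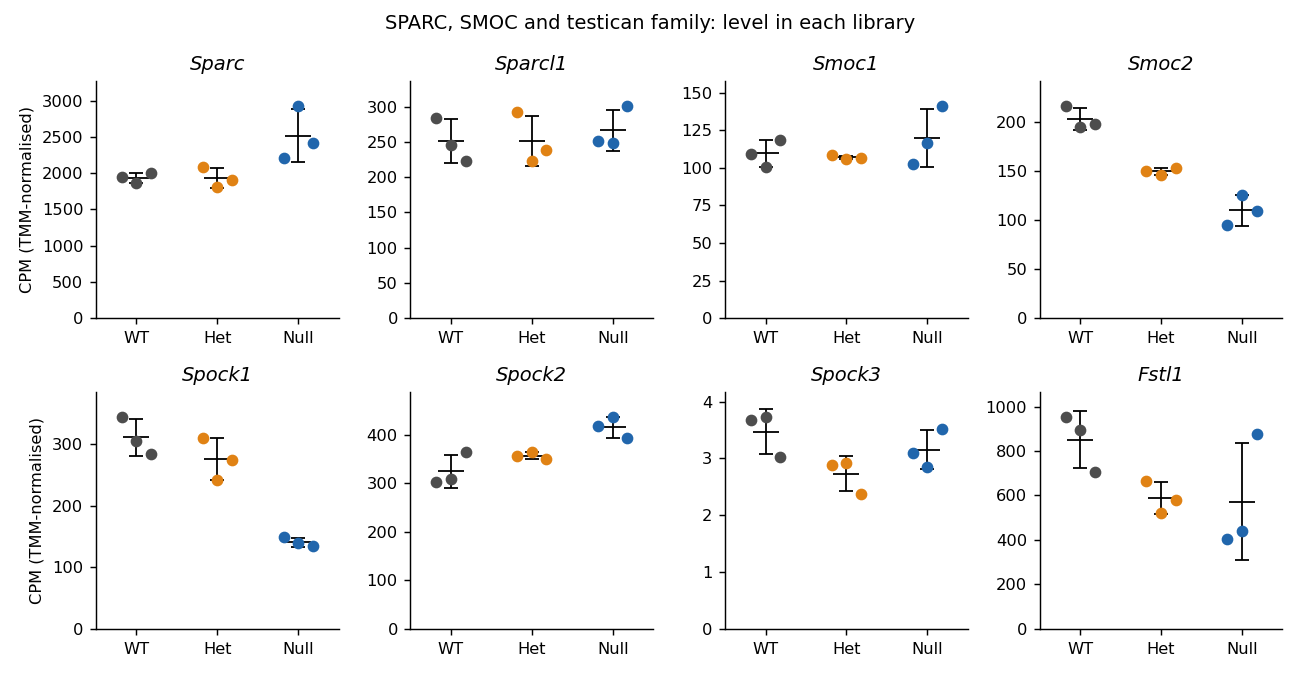
Level of each family member in CPM (vertical axes, starting at 0) in the 9 libraries, with 1 point per embryo and the mean ± SD of the 3 libraries of each genotype in black. Spock1 in null (134.1 to 148.5 CPM) lies below all WT and Het libraries, Smoc2 steps down from WT to Het to null, and Fstl1 has 1 null library, at 874.3 CPM, at the WT level.

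All 8 members had enough counts to be tested in each of the 3 comparisons. A gene was called when its edgeR adjusted p, taken over all genes tested, was under 0.05 and its absolute log2 fold change over 0.5. In null against WT, 2 members were called, Spock1 and Smoc2, both lower, where 1.71% of the 17168 genes tested were called, and the libraries of 4 members did not overlap, as for 19.0% of genes. In Het against WT none of the 8 was called by edgeR, against 0.151% of all genes, 1 was called by DESeq2, and 3 did not overlap, as for 18.0% of genes. In null against Het only Spock1 was called, where 0.615% of genes were, and 4 members did not overlap, as for 18.2%. These counts describe genes already picked out and are not read against the background. The median log2 fold change of the members was -0.03 in null against WT, -0.11 in Het against WT and 0.13 in null against Het, beside 0.01, 0.00 and 0.01 over all genes tested. The 3 comparisons share libraries, so their values for a gene are not independent of each other.

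**Figure D2:**
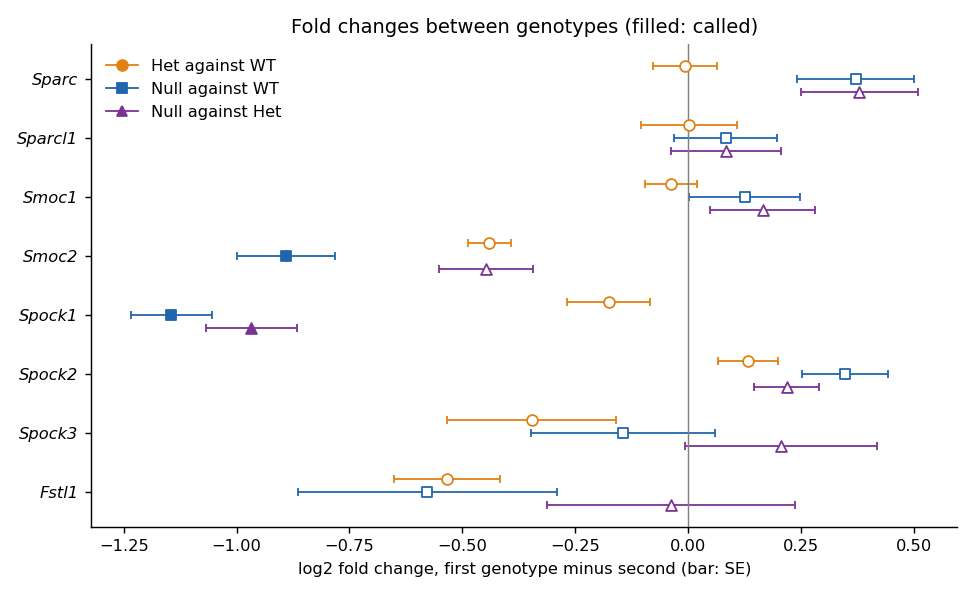
Log2 fold change of each member in Het against WT, null against WT and null against Het (horizontal axis, first genotype minus second), with bars of 1 SE and filled symbols for called genes. Spock1 at -1.15 and Smoc2 at -0.89 in null against WT and Spock1 at -0.97 in null against Het are the filled symbols, and Sparc and Spock2 lie to the right of 0 in both comparisons with null.

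Spock1 encodes testican-1, a secreted proteoglycan that can inhibit proteases such as cathepsin L. It was at 343.5, 305.3 and 283.1 CPM in WT 1 to 3, at 310.3, 241.6 and 273.9 CPM in Het 1 to 3, and at 148.5, 139.9 and 134.1 CPM in null 1 to 3. The null libraries sat close together below every other library, while WT and Het overlapped. Spock1 fell by 1.15 on the log2 scale in null against WT (SE 0.09), to 45.3% of the WT mean, and by 0.97 in null against Het (SE 0.10), to 51.2% of the Het mean. The Het mean was 88.6% of WT, a log2 difference of -0.18 (SE 0.09) that was not called. It was -0.27 without Het 1, -0.09 without Het 2, -0.10 without WT 1 and -0.04 with only the 6 libraries low in mesenchyme markers. Spock1 was called in null against WT in every alternative fit that kept more than 1 library per genotype. Its log2 difference was -1.20 to -0.97 over all the alternative fits. In null against Het it was no longer called without Het 1, at -0.87, or without Het 3, at -0.97.

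The summed level of the listed Kölliker's organ markers was lower in null, as Spock1 was. The sum of 11 markers, which do not include Spock1, ran from 3961 to 4934 CPM in WT, 3700 to 4633 in Het and 2154 to 2401 in null. Without Tecta, which made up 66.2% of the sum, the other 10 still ran from 1359 to 1701, 1201 to 1494 and 759 to 814.8 CPM. Of these 11, 9 were called lower in null against WT and none higher. The paper had already named Clic6, Tecta, Fgf10, Efhd1, Itga8 and Gsn as lower in null, so this count was partly set by the choice of list. Other Kölliker's organ genes of the paper were left out, among them Tectb, which it reports as higher in null. Dcn, also left out, was at -0.21 (SE 0.15) and not called. Tecta, a tectorial membrane glycoprotein and the most abundant of the 11, went from 2883 CPM in WT to 1523 in null. Its log2 difference was -0.93 (SE 0.13, edgeR adjusted p = 0.013). Within each genotype the libraries had the same order by Spock1 and by the full marker sum, but without Tecta the null library with the most Spock1, Null 1, had the smallest sum. The paper's single-cell data from WT ducts list Spock1 itself among the genes most enriched in Kölliker's organ. In bulk RNA, fewer cells of a type and less RNA per cell cannot be told apart, and the part of Kölliker's organ markers in the Spock1 difference was not tested.

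**Figure D3:**
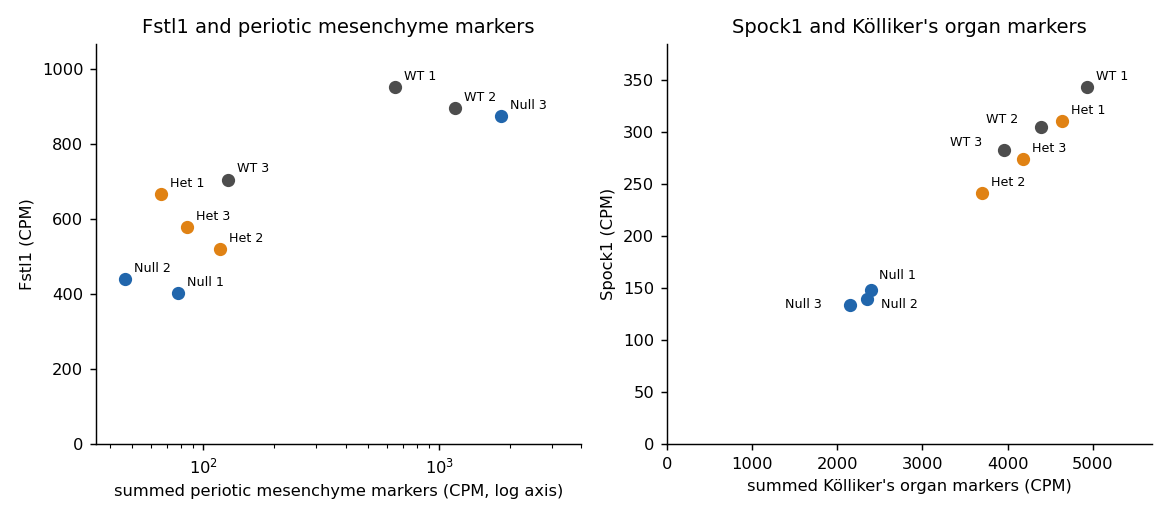
Left, Fstl1 level against the summed level of 13 periotic mesenchyme markers (log axis); right, Spock1 level against the summed level of 11 Kölliker's organ markers, both in CPM, with 1 labelled point per library. WT 1, WT 2 and Null 3 are the 3 libraries at high mesenchyme sum and high Fstl1, and the 3 null libraries form a separate group at low Spock1 and low marker sum.

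Spock2, testican-2, is ENSMUSG00000058297 at chr10:60106219-60135198 on the plus strand. Its levels were 302.0, 308.7 and 364.1 CPM in WT, 356.0, 364.0 and 349.4 in Het, and 417.1, 436.1 and 392.2 in null. All null libraries lay above all others, whereas the Het libraries lay within the WT range. The log2 difference was 0.35 (SE 0.10) in null against WT and 0.22 (SE 0.07) in null against Het, and neither was called. Spock2 was lower in the libraries high in mesenchyme markers, within WT (302.0 and 308.7 against 364.1 CPM) and within null (392.2 against 417.1 and 436.1), and with only the other 6 libraries the difference in null against WT was 0.23 (SE 0.12). Markers of the duct roof gave no common direction beside it: Oc90, an otoconial matrix protein, made up 86.9% of the sum of 9 markers and was higher in null, whereas the other 8 together ran from 1336 to 1631 CPM in WT and 1273 to 1362 in null, and none of the 9 was called in null against WT, while 1 was called higher in null against Het. The sum of 10 prosensory domain markers was 1073 to 1180 CPM in WT, 1306 to 1322 in Het and 1309 to 1608 in null. It set WT apart from Het, while null overlapped Het, unlike Spock2. In null against WT 4 of these markers were called higher, Fgf20, Cdkn1b, S100a1 and Lfng. The paper had already named these genes as higher in null, and the other markers were not called. The sum of 8 outer sulcus markers was 2347 to 2505 CPM in WT, 2411 to 2761 in Het and 2478 to 3354 in null, with 1 called higher in null against WT and 1 called lower in Het against WT. The part of either list in the Spock2 values was not tested.

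Spock1 was lower and Spock2 higher in null, so their ratio carries the sum of both differences and is given only to place each library. The log2 ratio of Spock1 to Spock2, each per length, was -0.41, -0.61 and -0.96 in WT, -0.79, -1.19 and -0.95 in Het, and -2.09, -2.24 and -2.15 in null. Spock2 exceeded Spock1 per length in all 9 libraries, and in null the ratio was lower than in any WT or Het library, with a mean of -2.16 ± 0.08 (SD) against -0.66 ± 0.28 in WT. This ratio is taken within a library and does not depend on how libraries were scaled.

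Spock3, testican-3, is ENSMUSG00000054162 at chr8:62951009-63357103 on the plus strand. Only 65 to 99 reads fell on it per library, or 2.38 to 3.73 CPM. Its means were 3.47 CPM in WT, 2.73 in Het and 3.15 in null. Every Het library was below every WT library, but the largest log2 difference, -0.35 in Het against WT, had an SE of 0.19, and none was called. Spock3 was higher in the libraries high in mesenchyme markers, within WT (3.67 and 3.73 against 3.02 CPM) and within null (3.52 against 2.84 and 3.10), and with only the other 6 libraries the Het against WT difference was -0.15 (SE 0.29).

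Smoc2 encodes a secreted calcium-binding matrix protein and is ENSMUSG00000023886 at chr17:14279506-14404790 on the plus strand. Its levels were 215.8, 195.0 and 198.2 CPM in WT, 149.6, 146.4 and 153.1 CPM in Het, and 94.8, 125.5 and 109.3 CPM in null. The genotypes were fully ordered, with every WT library above every Het library and every Het library above every null library. It was the only member with such an order, which 0.742% of the 17797 genes tested with all 9 libraries showed in this direction and 0.899% in the other. Smoc2 fell by 0.89 on the log2 scale in null against WT (SE 0.11), to 54.1% of the WT mean. Of the 11 Kölliker's organ markers, 9 were called lower in the same comparison, a count partly set by the choice of list, as given beside Spock1. The part of these markers in the Smoc2 difference was not tested. The Het level of Smoc2 was 73.8% of WT, a log2 difference of -0.44 (SE 0.05), which is under the fold threshold and was not called. In null against Het the log2 difference was -0.45 (SE 0.10) and was not called, although it was called at -0.55 without Null 2. The call in null against WT was lost without WT 1, at -0.84, and without WT 2, at -0.91. With only the 6 libraries low in mesenchyme markers the log2 difference was -0.84. That fit holds a single WT library and takes its spread from Het and null.

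Smoc1, the paralog of Smoc2 and a factor of eye and limb development, is ENSMUSG00000021136 at chr12:81026808-81186414 on the plus strand. It was at 109.5, 100.6 and 118.7 CPM in WT, 108.3, 106.1 and 106.5 in Het, and 102.3, 116.8 and 140.9 in null. The genotypes overlapped throughout, and the highest null value was in Null 3, the library with the most mesenchyme markers, whereas in WT the highest was WT 3, the library low in them. Its log2 difference in null against WT was 0.13 (SE 0.12) with all libraries, -0.00 without Null 3 and -0.11 with only the 6 libraries low in mesenchyme markers.

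Smoc1 overlapped between genotypes, so the ratio of Smoc2 to Smoc1 largely restates the Smoc2 differences. It is given only to place each library. The log2 ratio of Smoc2 to Smoc1 per length was -0.01, -0.04 and -0.25 in WT, -0.53, -0.53 and -0.47 in Het, and -1.10, -0.89 and -1.36 in null. Both genes were thus at near equal levels in 2 of the WT libraries, and Smoc1 exceeded Smoc2 per length in every library. No ratio of one genotype overlapped those of another, as was already so for Smoc2 alone.

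**Figure D4:**
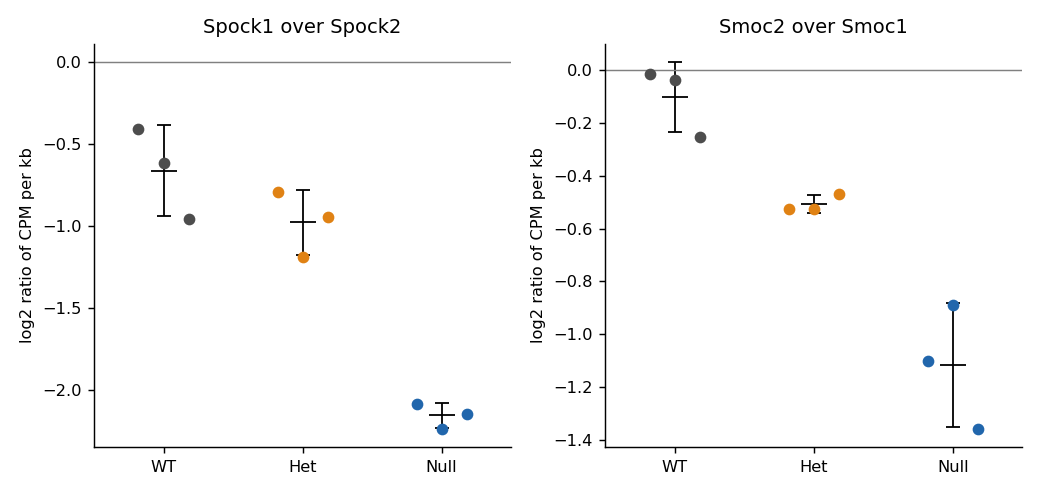
Log2 ratio of Spock1 to Spock2 (left) and of Smoc2 to Smoc1 (right), from CPM per kilobase of exon, with 1 point per library and the mean ± SD of each genotype in black. The null libraries lie at -2.24 to -2.09 for the testicans and at -1.36 to -0.89 for the SMOC genes, below all WT and Het libraries in both.

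Sparc encodes SPARC (osteonectin), a collagen-binding protein, and is ENSMUSG00000018593 at chr11:55394500-55423183 on the minus strand. Its levels were 1944, 1866 and 2001 CPM in WT, 2082, 1810 and 1901 in Het, and 2208, 2919 and 2417 in null. Each null library was above each WT and Het library, and the null libraries were spread more widely than the others. The log2 difference was 0.37 (SE 0.13) in null against WT and 0.38 (SE 0.13) in null against Het, neither called, and -0.01 (SE 0.07) in Het against WT. Null 2, the library with the most Sparc, also had the most Oc90, 13380 CPM against 7249 to 10610 elsewhere, but its other 8 roof markers summed to 1362 CPM, within the 1273 to 1631 of the remaining libraries. Null 3, the library rich in mesenchyme and cartilage markers, was at 2417 CPM, between the other null libraries, and with only the 6 libraries low in mesenchyme markers the null against WT difference was 0.36 (SE 0.19).

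Sparc made up 55.2 ± 2.49% of the summed level per length of the 8 genes in WT, 59.0 ± 0.372% in Het and 65.5 ± 5.22% in null (SD, n = 3). The sum itself was 927.1 ± 30.7 CPM per kilobase in WT, 864.9 ± 67.7 in Het and 1014 ± 110.9 in null, and the libraries overlapped.

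Sparcl1 encodes hevin, also known from its role at synapses, and is ENSMUSG00000029309 at chr5:104079111-104113733 on the minus strand. It was at 284.7, 245.2 and 223.2 CPM in WT, 292.1, 223.7 and 238.8 in Het, and 251.1, 249.1 and 300.4 in null. The ranges of the 3 genotypes overlapped, with the null range starting higher than the others, and Sparcl1 had a log2 difference of 0.08 (SE 0.11) in null against WT and of 0.00 (SE 0.11) in Het against WT. The libraries high in mesenchyme markers held more Sparcl1 than the others of their genotype, in WT (284.7 and 245.2 against 223.2 CPM) and in null (300.4 against 249.1 and 251.1). With only the 6 libraries low in these markers the differences were 0.17 (SE 0.16) and 0.17 (SE 0.15).

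Fstl1 is ENSMUSG00000022816 at chr16:37776873-37836514 on the plus strand. Its levels were 952.3, 896.5 and 705.2 CPM in WT, 665.9, 520.1 and 578.7 in Het, and 403.3, 440.5 and 874.3 in null. WT lay above Het without overlap, whereas null was split, with 2 libraries below all others and Null 3 among WT. The 3 highest libraries were WT 1, WT 2 and Null 3, the 3 that stood apart in mesenchyme markers. In null against WT the log2 difference was -0.58 (SE 0.29) with all libraries and not called. It was -1.01 (SE 0.14) without Null 3, which edgeR called, and -0.74 (SE 0.15) with only the 6 libraries low in mesenchyme markers, which was not called. Among those 6 libraries, WT 3 was at 705.2 CPM, Het at 520.1 to 665.9 and null at 403.3 to 440.5, with a single WT library to set the top. The part of mesenchyme in the Fstl1 values was not tested.

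For Fstl1 in Het against WT the log2 difference was -0.53 (SE 0.12) and was not called by edgeR. It was called with DESeq2 at -0.54, without the filter on low counts at -0.54 and without WT 3 at -0.65. A block on the replicate number left the difference at -0.53, and it was called there too. With only the 6 libraries low in mesenchyme markers it was -0.26 (SE 0.15) and not called, and in null against Het it moved from -0.04 (SE 0.28) to -0.47 (SE 0.12), not called either.

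**Figure D5:**
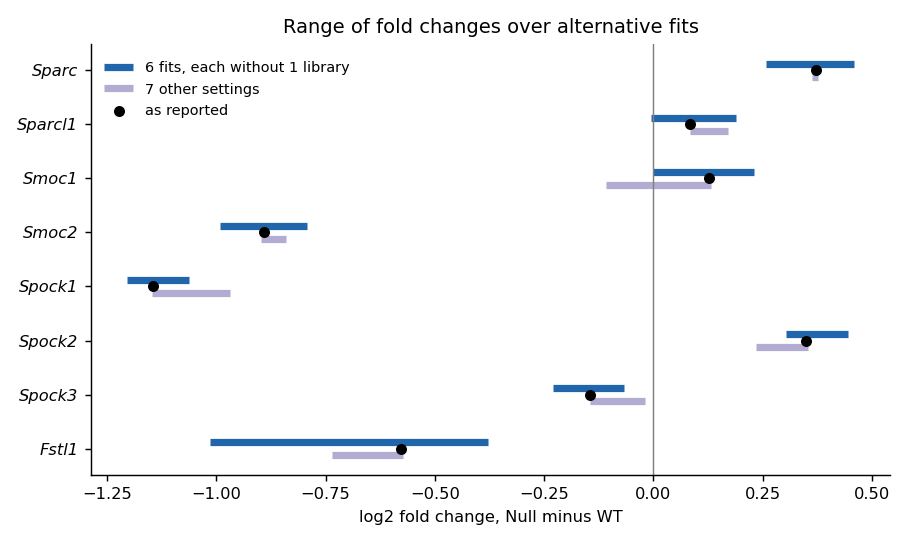
Log2 fold change of each member in null against WT (horizontal axis): the reported value as a black point, the range over the 6 fits that each leave out 1 library in blue, and the range over 7 other settings in light purple. Fstl1 spans -1.01 to -0.38 when single libraries are left out, Spock1 stays between -1.20 and -0.97 over all 13 fits, and the range of Smoc1 includes 0.

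Genes that the family proteins act with were taken from 7 lists holding 86 genes, of which 77 could be tested in null against WT. Only 1 of the 77 was called, higher, and none lower, with 16 (20.8%) at an unadjusted p under 0.05, as for 12.2% of all genes tested. Their median log2 fold change was 0.09, beside 0.01 over all genes tested. In Het against WT edgeR called none of the 77, with 29 (37.7%) at an unadjusted p under 0.05, as for 13.1% of all genes tested. In null against Het it called 2, Postn and Thbs4, with 20 (26%) at an unadjusted p under 0.05, as for 11.4% of all genes tested. The lists hold genes that mesenchyme expresses, such as Col1a2, Col3a1, Bgn and Tgfbi, and the median log2 difference of the 13 periotic mesenchyme markers was -2.97 in Het against WT and 2.72 in null against Het. Their part in these counts was not tested.

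Among 13 tested genes of other matricellular proteins, the 1 called was Postn, periostin, which links collagen to cell surface integrins. It was at 130.3, 137.3 and 145.4 CPM in WT, 177.6, 208.7 and 177.9 in Het, and 352.1, 380.7 and 525.9 in null. Postn rose by 1.60 on the log2 scale in null against WT (SE 0.15, edgeR adjusted p = 0.0032) and by 1.16 in null against Het (SE 0.16, edgeR adjusted p = 0.022). Null 3, with the most mesenchyme markers, was its highest library, and all 3 null libraries lay above all WT and Het libraries. The null against WT difference was 1.41 without Null 3 and 1.34 with only the 6 libraries low in mesenchyme markers. Thbs4, thrombospondin-4, fell by 1.59 in null against Het (SE 0.24, edgeR adjusted p = 0.032), from 6.35 to 9 CPM in Het to 1.87 to 2.81 in null.

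None of the tested genes was called in null against WT in the other 6 lists: 6 of other follistatin-domain genes, 7 collagens bound by SPARC, 9 proteases and inhibitors that testicans act with, 20 proteoglycans, 15 BMP signaling genes and 7 receptors. The gene with the largest absolute log2 difference is given for each. For the follistatin-domain genes this was Tmeff2 at -1.22 (SE 0.29, edgeR adjusted p = 0.10), a transmembrane protein, which was called by DESeq2 and with all 9 libraries in 1 fit. With only the 6 libraries low in mesenchyme markers, a single WT library among them, the Tmeff2 difference was -1.71. For the BMP genes it was the ligand Bmp2 at 1.69 (SE 0.37, edgeR adjusted p = 0.081), which was 4.63 to 6.26 CPM in WT and 11.2 to 29.0 in null, and was called by DESeq2, without the filter on low counts, with all 9 libraries in 1 fit and, at a smaller 1.11, without Null 3.

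In the remaining 4 lists, the gene with the largest difference was one that stood out in Null 3 or in the libraries with mesenchyme. Col1a1, a fibrillar collagen chain, was at 283.0 CPM in Null 3 and 7.36 to 11.8 in all other libraries, and its log2 difference of 3.41 (SE 1.29) in null against WT became -0.04 without Null 3. Acan, the cartilage proteoglycan aggrecan, was at 501.9 CPM in Null 3 and at most 7.03 elsewhere, a difference of 6.59 (SE 2.15) that was called without the filter on low counts and was 0.65 without Null 3. Timp1, a metalloprotease inhibitor, was at 8.93 CPM in Null 3 and at most 2.62 elsewhere, a difference of 1.19 (SE 0.63) that was 0.08 without Null 3. Stab1, a scavenger receptor of SPARC, had a difference of -1.65 (SE 0.79) and was highest in WT 1, WT 2 and Null 3. Its difference was -1.01 without WT 2, -2.56 without Null 3 and -0.31 with only the 6 libraries low in mesenchyme markers.

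Genes most alike in pattern to the called members were sought by Pearson correlation of log2 CPM over the 9 libraries, given as a description, since the libraries share genotypes. The 3 nearest to Spock1 were Calb1, a calcium-binding protein (r = 0.996), 1500015O10Rik (r = 0.992) and Tecta (r = 0.992). As the search picks genes of like pattern, each was lowest in null, with Calb1 at a mean of 16.6 CPM in WT, 8.71 in Het and 0.746 in null. After the mean of each genotype was removed, r with Spock1 was 0.978 for Tecta, 0.95 for Calb1 and 0.831 for 1500015O10Rik. The 3 nearest to Smoc2 were Stmn2, a microtubule regulator of neurons (r = 0.98), Tspan8, a tetraspanin (r = 0.975), and Cyp39a1, an oxysterol hydroxylase (r = 0.974). Picked in the same way, all 3 had their means in the order WT, Het, null, with Stmn2 at 8.59, 3.21 and 1.10 CPM. After the mean of each genotype was removed, r with Smoc2 was 0.958 for Cyp39a1, 0.695 for Stmn2 and 0.69 for Tspan8. Between Spock1 and Smoc2 themselves r was 0.879 over the 9 libraries and 0.063 once genotype means were removed.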

How the data were processed

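The authors prepared TruSeq mRNA libraries, sequenced 50-base single reads and aligned them to mm10 with STAR. The submitters' processing notes also name cutadapt 1.13, HTSeq 0.6.1p1 and DESeq2. The strand setting and the annotation release are not given in the sources used here. The deposited values are raw counts per Ensembl gene, 54232 per library, with no normalization. Names, mm10 positions and exon lengths came from GENCODE, which held 54165 of them. No exon of a family member overlapped an exon of another gene.

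The members and all gene lists were chosen with earlier results of these data known. Libraries were grouped by labelled genotype and compared in pairs, 3 libraries each, with the quasi-likelihood test of edgeR 4.0.16 in R 4.3.3 after TMM normalization and filterByExpr (minimum count 10), with Benjamini-Hochberg adjustment. The SE of a log2 fold change is its size divided by the square root of the F statistic. CPM used TMM factors over the 9 libraries, and log2 CPM a prior count of 2. The procedure was tested on simulated data. The 37 mitochondrial genes held 0 counts in every library. Library totals of 24095322 to 30819118 and 3 embryos per genotype set the precision. Libraries of a genotype differed by more than counting noise, so each counted as 1 replicate.

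Named were all 8 members, the targeted gene, in each list the genes called in null against WT or else the gene with the largest absolute difference, and the 3 genes most alike to each called member. Thbs4, Tecta as a marker of Kölliker's organ, Oc90, the mesenchyme-expressed list genes Col1a2, Col3a1, Bgn and Tgfbi, and the genes named under the other observations fell outside this rule and were named after their values were seen. The alternatives were DESeq2 1.42.0, RLE normalization, no filter on low counts, all 9 libraries in 1 fit, the replicate number as a block, and leaving out each library in turn. DESeq2 as planned took every gene with a count. Its fit on the genes kept by the edgeR filter and the fit of only the 6 libraries low in mesenchyme markers were chosen after seeing the data. Motif matches and primer positions were found by exact string search.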

Additional observations from a re-analysis of the deposited data

How the results depend on the processing

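The number of genes called depended strongly on the fit. In null against WT, 293 genes were called, against 618 with DESeq2 (609 on the genes kept by the edgeR filter, a fit added after seeing the data), 476 without the filter on low counts and 468 with all 9 libraries in 1 fit, and leaving out 1 library gave 68 (without WT 2) to 446 (without Null 3). In Het against WT, 26 genes were called, against 318 with DESeq2 (297 on the same genes), 684 without the filter, 0 with all 9 libraries in 1 edgeR fit (1130 at an unadjusted p under 0.05), and 14 with only the 6 libraries low in mesenchyme markers. Leaving out 1 library gave 0 (without Het 2 or Het 3, with 1833 and 1934 at an unadjusted p under 0.05) to 505 (without WT 3). In null against Het, 105 genes were called, against 357 with DESeq2 (361 on the same genes), 366 without the filter, 164 with all 9 libraries and 201 with only the 6 libraries, and 12 (without Het 1) to 182 (without Null 3) when 1 library was left out.

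The same-numbered libraries did not deviate together from their genotype means. The correlations for numbers 1, 2 and 3 were 0.0053, -0.14 and -0.28 between null and WT, 0.20, 0.11 and -0.058 between Het and WT, and 0.14, -0.12 and 0.083 between null and Het, so the numbers were not taken as pairs. With the replicate number as a block, 133 genes were called in null against WT, 197 in Het against WT and 52 in null against Het, and 2, 1 and 1 members were. The member added by the block in Het against WT was Fstl1, at -0.53.

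Of the family, 2 members were called in null against WT, and 1 to 3 when single libraries were left out. In Het against WT none was called by edgeR, 1 (Fstl1) by DESeq2 with either set of genes and 1 (Fstl1) without the filter, and 0 to 1 when single libraries were left out. In null against Het 1 was called, and 0 to 2 when single libraries were left out. Some differences changed sign. That of Col1a1 ran from -0.036 to 3.97 over the fits that leave out 1 library, and that of Fstl1 in null against Het from -0.48 (without Null 3) to 0.16 (without Null 1). On the same basis Smoc1 ran from -0.002 to 0.229 in null against WT and from -0.094 to 0.025 in Het against WT, Sparcl1 from -0.12 to 0.10 in Het against WT, from -0.006 to 0.188 in null against WT and from -0.008 to 0.207 in null against Het, and Sparc from -0.06 to 0.04 in Het against WT. With only the 6 libraries low in mesenchyme markers Smoc1 was at -0.11 in null against WT and Spock2 at -0.03 in Het against WT. That fit holds a single WT library, which is assumed to vary like the other groups. Prdm16 itself was lower in Het in each fit, at -0.62 to -0.41. With 65 to 99 reads per library, Spock3 is the member whose values depth limits most.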

Other observations

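For the members that were not called, the genes most alike in pattern were also computed, and the first of each is given as a value, named after it was seen. The nearest to Sparc was Anxa2, a membrane-binding annexin, with r = 0.993 over the 9 libraries. Its mean was 290.4 CPM in WT, 290.9 in Het and 487.3 in null. The nearest to Spock2 was Lmx1a, a transcription factor of the non-sensory duct, with r = 0.993 and means of 240.2, 272.1 and 340.2 CPM. The nearest to Fstl1 was Map4, with r = 0.985 and means of 287.0, 246.8 and 237.6 CPM. The first genes for the other members were Dnaic2 for Smoc1 (r = 0.975), Casq1 for Spock3 (r = 0.968) and Sept4 for Sparcl1 (r = 0.956). These are descriptions over 9 libraries that share 3 genotypes.

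Proteins that testicans can inhibit or act with showed 1 further value of this kind: Ctsl, the protease cathepsin L, was at 93.4 to 95.2 CPM in WT, 90.4 to 95.4 in Het and 111.8 to 141.7 in null. Its log2 difference in null against WT was 0.43 (SE 0.09, edgeR adjusted p = 0.079), which did not pass the threshold. The libraries of these 2 genotypes did not overlap, as for 19.0% of all genes tested. Id4, a gene that responds to BMP signals, had a log2 difference of 0.55 (SE 0.11, edgeR adjusted p = 0.065). Gpc4, a glypican, was at 0.37 (SE 0.08, edgeR adjusted p = 0.074), and none of these 3 was called.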
